A study of Mus musculus with 36 samples.

Results

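Thrombospondins, periostin and their relatives are matricellular proteins, which cells secrete into the extracellular matrix. The list holds 10 mouse genes, fixed by name: Thbs1, Thbs2, Thbs3, Thbs4, Comp, Postn, Tgfbi, Sparc, Spp1 and Cthrc1. The annotation used here lists a probe set, a group of short probes read out as 1 value, for 8 of these 10 genes, out of 17097 genes in all. Thbs1 and Spp1 were not analysed here. Where a gene had several probe sets, the one with the highest mean stood for it. Of the 8 genes, 7 passed the filter on low values and were tested. Comp, with a mean of 4.79 log2, lay under the filter of 5.19 log2.

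Matricellular proteins build little of the matrix scaffold themselves. They bind collagens, growth factors, proteases and cell surface receptors, and are best known from wounds, tumours and injured nerves, where fibroblasts and other stromal cells make much of them. Thrombospondins 1 and 2 form trimers whose type I repeats bind CD36, a scavenger receptor that also carries fatty acids into cells, while thrombospondins 3, 4 and COMP form pentamers without those repeats. Periostin (Postn) and TGFBI share fasciclin domains and bind integrins. SPARC binds collagen and calcium, osteopontin (Spp1) binds integrins and CD44, and CTHRC1 is a secreted protein that TGF-beta induces.

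The study grew human oral carcinoma cells in the mouth of NOD-SCIDγ (NSG) mice, which lack T, B and natural killer cells, and measured RNA of the neural fraction of the mouse stroma on 36 mouse arrays. Tumour cells carried either a non-targeting short hairpin RNA (PLKO) or one that silences CD36 (shCD36), and the hosts were fed a control diet or food enriched in palmitic acid (palmitate diet) or in oleic acid (oleate diet). The labels give no age of the mice, and leave unsaid if 1 tumour or pooled animals supplied the RNA of a group. In all, 3 experiments make up 11 groups, each 1 biological replicate read on 3 or 4 arrays that the labels call technical replicates. The first VDH15 experiment (VDH15 is the labelled oral carcinoma line) has non-targeting tumours only, with 4 arrays for each of control, palmitate and oleate diet. The SCC25 experiment (SCC25 is a human tongue carcinoma line) and the second VDH15 experiment each have non-targeting and shCD36 tumours on control and palmitate diet, with 3 arrays per group. All hosts are NSG mice, and every tumour without shCD36 carries the non-targeting hairpin. The hairpins sat in the human tumour cells and not in the mouse stroma measured here. P-values rest on the spread of the 11 group means that is left after terms for condition and experiment, pooled over all groups. The SE of an estimate comes from that pooled spread, and n gives the number of experiments with that comparison.

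Levels are log2 intensities, so a difference of 1 is a doubling. The deposited values carry no difference between experiments beyond diet and shRNA, so levels are compared within an experiment only. Array medians lay between 5.98 and 6.04 log2. On the first principal component, which held 44.5% of the variance, 3 arrays stood apart: arrays 1 and 2 of palmitate diet in the first VDH15 experiment and array 1 of non-targeting palmitate in the second scored 42.5 to 53.2, against 13.8 to 23.2 for the other 7 non-targeting palmitate arrays and -26.9 to -1.01 for the remaining 26. Of 9 Schwann cell markers that would mark a neural fraction, 6 were listed, and Sox10, Ngfr and Erbb3 lay above the filter while S100b, Foxd3 and Gfap lay under it. Of 7 neuron markers, 4 lay above it. Among keratinocyte markers, Krt5 and Krt14 both had a mean of 12.6 log2. Of the endothelial markers 7 of 7 lay above the filter, and of the fibroblast markers 7 of 8. The filter left out the lowest 25% of genes, so lying above it does not by itself show expression.

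The RefSeq promoter table (GRCm38.p6, 250 bases before to 50 bases after a start) holds 9 promoters for 7 of the 10 genes. Those of 3 genes that rose on palmitate diet (Thbs2, Sparc and Postn, the last with a pair of listed starts) are printed to show the sequence around their starts. Each is written 5′ to 3′ on the gene's strand, with CAGAC, the core of the SMAD binding element through which TGF-beta acts, or its reverse complement in capitals. Thbs2 lies on chr17:14694213-14694512 (minus strand), Sparc on chr11:55420031-55420330 (minus strand), and Postn on chr3:54359017-54359316 and chr3:54360857-54361156 (plus strand).
Thbs2: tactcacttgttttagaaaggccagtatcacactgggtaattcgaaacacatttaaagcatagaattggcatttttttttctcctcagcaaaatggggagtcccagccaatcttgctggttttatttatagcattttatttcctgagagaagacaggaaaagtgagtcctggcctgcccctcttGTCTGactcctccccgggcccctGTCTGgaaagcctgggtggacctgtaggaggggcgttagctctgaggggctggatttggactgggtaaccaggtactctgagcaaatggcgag
Sparc: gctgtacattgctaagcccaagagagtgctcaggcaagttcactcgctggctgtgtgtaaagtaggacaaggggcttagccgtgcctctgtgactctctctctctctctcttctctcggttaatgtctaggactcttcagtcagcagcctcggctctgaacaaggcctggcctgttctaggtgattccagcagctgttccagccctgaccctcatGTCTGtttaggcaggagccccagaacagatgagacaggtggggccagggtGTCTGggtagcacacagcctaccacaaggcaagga
Postn, first start: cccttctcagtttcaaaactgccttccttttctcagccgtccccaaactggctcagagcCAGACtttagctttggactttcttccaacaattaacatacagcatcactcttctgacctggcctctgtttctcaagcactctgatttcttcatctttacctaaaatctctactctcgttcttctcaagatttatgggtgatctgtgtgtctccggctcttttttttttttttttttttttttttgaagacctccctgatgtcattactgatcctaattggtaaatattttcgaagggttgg
Postn, second start: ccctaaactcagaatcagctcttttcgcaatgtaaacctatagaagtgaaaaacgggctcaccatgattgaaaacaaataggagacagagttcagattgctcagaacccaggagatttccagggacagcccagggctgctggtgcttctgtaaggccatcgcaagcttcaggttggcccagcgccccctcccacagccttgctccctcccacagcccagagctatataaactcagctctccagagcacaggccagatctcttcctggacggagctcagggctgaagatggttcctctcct
Searched on both strands, CAGAC stood in 7 of the 9 promoters, and in 49.6% of all 32851 promoters of the table. It occurred 2 times in Thbs2, Sparc, Tgfbi, Thbs4 and at the first Spp1 start. At the first Postn start and the second Spp1 start it occurred 1 time, and at the second Postn start and in Thbs3 0 times. TATAAA, the letters of a TATA box, was searched on both strands and at any distance from the start. It stood in 3 of the 9 (Thbs2, the second Postn start and 1 of both Spp1 starts) against 13.6% of all. In Thbs2 the match was the reverse complement, TTTATA. Such a match does not by itself make a TATA box of the gene. The AP-1 site TGANTCA stood in 0 of the 9 against 7.8% of all. None of these 3 motifs contains another. The promoter of Thbs4 was 72.0% G and C and that of the first Postn start 40.0%, around a median of 52.7% over the table.

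The first question was how palmitate diet moved these genes in stroma of non-targeting tumours, for which all 3 experiments give a value. Of the 7 tested genes, 4 rose: Thbs2, Postn, Sparc and Cthrc1. Periostin was 2.96-fold higher and thrombospondin 2 was 3.13-fold higher. No member fell. Called genes have an adjusted p under 0.05 over all 12823 genes tested (limma with Benjamini-Hochberg adjustment on the 11 group means). Over all of those genes, 3.65% were called higher. The members' median difference was 1.30 log2, against -0.03 over all genes.

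Periostin, which binds integrins and helps collagen cross-linking, was the clearest case. In the first VDH15 experiment it read 10.21, 9.71, 9.46 and 9.76 log2 on control diet and 11.41, 11.15, 10.35 and 10.55 on palmitate. In SCC25 it read 9.39, 9.37 and 9.69 on control diet and 11.61, 11.32 and 11.12 on palmitate. In the second VDH15 experiment it read 9.40, 9.48 and 9.20 on control diet and 11.64, 10.91 and 10.78 on palmitate. Every palmitate array lay above every control array of its experiment. The difference was 1.56 ± 0.19 log2 (SE, n = 3 experiments, adjusted p = 0.0171), and 1.34 (adjusted p = 0.0345) without the 3 arrays that stood apart.

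Thrombospondin 2, a CD36 ligand that restrains vessel growth, had the largest called difference of the members. Its levels in the first VDH15 experiment were 8.98, 8.35, 8.02 and 8.59 log2 on control diet and 10.92, 10.56, 8.99 and 8.91 on palmitate. The ranges overlapped there by 1 control array, and both high palmitate arrays are among the 3 that stood apart. SCC25 arrays read 7.90, 8.13 and 7.65 on control diet and 10.26, 9.93 and 10.23 on palmitate, and those of the second VDH15 experiment 8.50, 8.70 and 8.73 against 10.07, 9.89 and 9.97. No ranges overlapped in these experiments. The fit gave 1.65 ± 0.23 log2 (SE, n = 3, adjusted p = 0.0196), and 1.33 (adjusted p = 0.0603) without the 3 arrays, which ended the call. Its other probe set, at lower levels, differed by 0.70 log2 in SCC25, 1.26 in the first and 0.96 in the second VDH15 experiment, against 2.24, 1.36 and 1.34 for the one used, so the direction was shared and the size in SCC25 was not.

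SPARC, a collagen-binding protein, also rose. Control arrays read 12.28, 12.26, 12.19 and 12.24 log2 in the first VDH15 experiment, where palmitate arrays read 12.87, 12.90, 12.55 and 12.62. In SCC25 the values were 11.96, 12.06 and 12.09 on control diet and 12.80, 12.89 and 12.84 on palmitate. The second VDH15 experiment gave 12.22, 12.31 and 12.22 against 13.11, 12.73 and 12.65. The groups did not overlap in any of the 3 experiments, though the rise was smaller than that of periostin. It was 0.63 ± 0.10 log2 (SE, n = 3, adjusted p = 0.0261), a 1.54-fold change, and 0.53 (adjusted p = 0.0444) without the 3 arrays. A second Sparc probe set differed by 0.51 log2 in SCC25 and 0.34 in the second VDH15 experiment but by 0.03 in the first.

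Cthrc1 encodes a secreted protein that fibroblasts make during repair. On control diet it read 7.84, 6.88, 6.61 and 6.94 log2 in the first VDH15 experiment, and on palmitate 9.91, 9.35, 7.38 and 7.50. Here the highest control array passed both lower palmitate arrays, and both higher palmitate arrays are among those that stood apart. SCC25 arrays read 7.05, 7.30 and 6.84 on control diet against 8.40, 9.09 and 8.88 on palmitate, and second VDH15 arrays 7.44, 7.16 and 7.35 against 8.05, 7.90 and 8.14. These groups did not overlap. The difference was 1.30 ± 0.22 log2 (SE, n = 3, adjusted p = 0.0277), a 2.46-fold change, and 0.93 (adjusted p = 0.0839) without the 3 arrays, which ended the call.

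Thrombospondin 4, found in tendon, muscle and nerve, had a larger estimate than any called member but varied more between experiments. In SCC25 it read 8.31, 8.22 and 8.42 log2 on control diet and 11.53, 11.64 and 11.75 on palmitate. First VDH15 arrays read 9.67, 9.21, 9.33 and 9.61 on control diet and 10.34, 9.84, 9.90 and 10.97 on palmitate. Second VDH15 arrays read 9.27, 9.52 and 8.47 on control diet and 11.12, 9.49 and 10.55 on palmitate, and only there did the groups overlap. The within-experiment differences were thus 3.32, 0.81 and 1.30 log2 in the order SCC25, first and second VDH15. The fit gave 1.81 ± 0.47 log2 (SE, n = 3, adjusted p = 0.0655), which was not called.

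Thbs3, the other pentameric thrombospondin tested, differed by 0.29 ± 0.13 log2 (SE, n = 3, adjusted p = 0.208). Its differences within experiments were 0.70 log2 in the first VDH15, 0.15 in SCC25 and 0.02 in the second VDH15 experiment, with overlapping arrays in all 3. TGFBI, the fasciclin relative of periostin, differed by 0.04 ± 0.14 log2 (adjusted p = 0.884, 95% interval -0.28 to 0.37). Its arrays ranged from 10.67 to 11.67 log2 over the series. In the first VDH15 palmitate group, the arrays that stood apart read 10.67 and 10.91 log2 and the other 2 read 11.51 and 11.56. Comp arrays lay between 4.53 and 5.09 log2 throughout. With no filter on low values its difference was 0.07 ± 0.07 log2 (adjusted p = 0.618).

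Within single experiments, arrays of palmitate and control diet were also set against each other as ranges. In the first VDH15 experiment 3 of 7 tested members were higher without overlap (Thbs4, Postn and Sparc), where 17.2% of all genes were. In SCC25 the count was 5 of 7 against 15.4% of all genes, and in the second VDH15 experiment 5 of 7 against 14.9%. Postn and Sparc were in all of these counts. Thbs2 and Cthrc1 were in those of SCC25 and the second VDH15 experiment, and Tgfbi only in the latter.

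**Figure D1:**
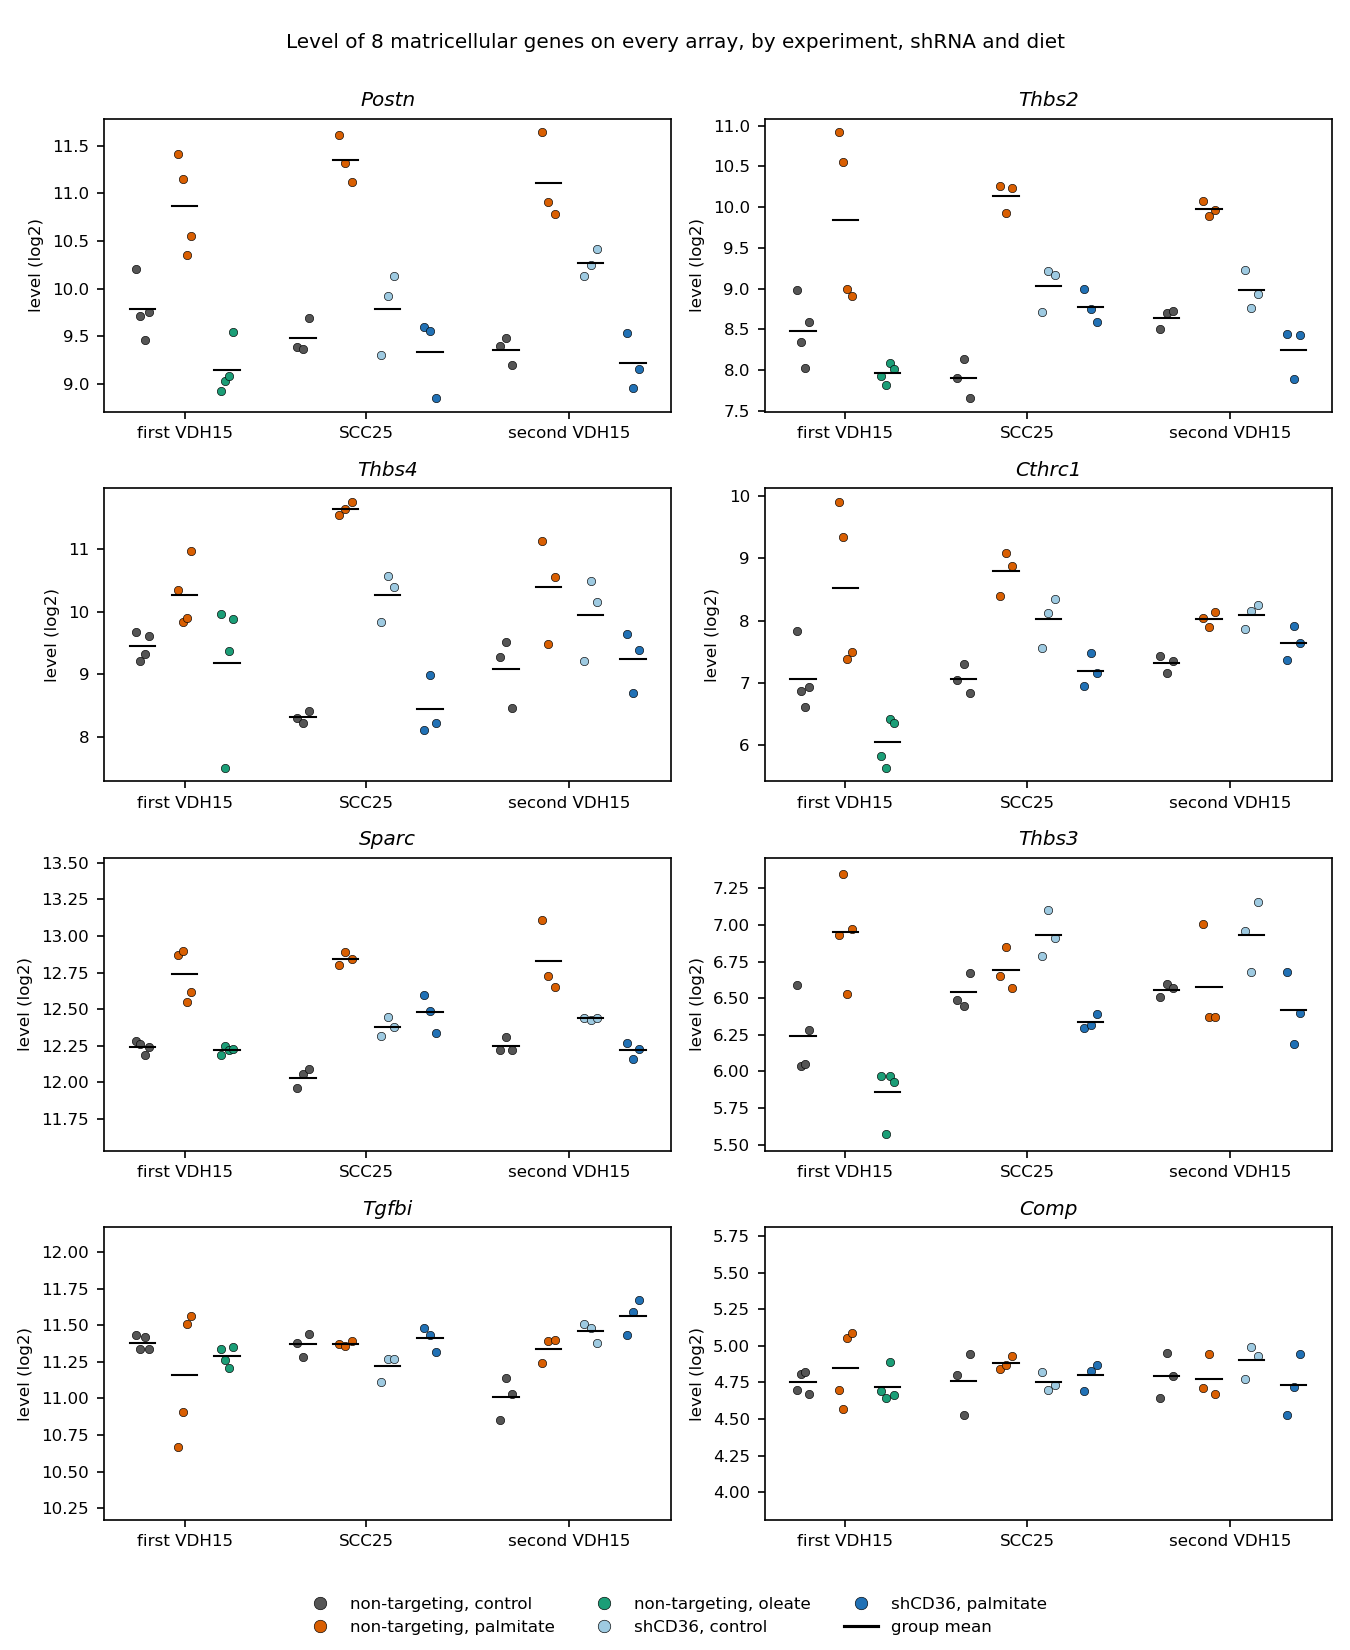
Level of each of the 8 genes (vertical axis, log2 intensity) on every array, with the groups ordered by experiment, shRNA and diet, colours for shRNA and diet and a bar at each group mean. For Postn and Sparc the orange palmitate points lie above the grey control points in all 3 experiments, while Comp stays between 4.53 and 5.09 log2.

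Without the first VDH15 experiment, Thbs2 and Postn were still called, with 224 of all genes called, against 887 with all 3 experiments. Leaving out SCC25 or the second VDH15 experiment kept none of the 4, with 1944 and 1857 of all genes at an unadjusted p under 0.05 in the same limma fit and 0 called. A limma fit to only the groups compared also called 0 members, with 2793 genes at that unadjusted p and 34 called.

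In shCD36 tumours the palmitate estimates of 6 of the 7 members were below 0. None was called (0 of 7, against 0.0% of all genes), with 2 members and 282 of all genes at an unadjusted p under 0.05. The members' median difference was -0.55 log2, against 0.01 over all genes. The design gives 2 experiments for this comparison.

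Periostin in SCC25 shCD36 tumours read 9.31, 9.92 and 10.13 log2 on control diet and 9.60, 9.56 and 8.85 on palmitate, with overlap. In second VDH15 shCD36 tumours it read 10.13, 10.25 and 10.42 on control diet and 9.54, 8.96 and 9.16 on palmitate, without overlap. The estimate was -0.75 ± 0.23 log2 (SE, n = 2, unadjusted p = 0.016, adjusted p = 1.0). Thrombospondin 2 read 8.71, 9.22 and 9.17 against 8.99, 8.75 and 8.59 in SCC25, and 9.23, 8.76 and 8.93 against 8.44, 7.89 and 8.43 in the second VDH15 experiment, in the order control and palmitate. Only the VDH15 groups were apart. Its estimate was -0.49 ± 0.28 log2.

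Thrombospondin 4 in SCC25 shCD36 tumours read 9.84, 10.57 and 10.39 log2 on control diet and 8.12, 8.99 and 8.22 on palmitate. The palmitate arrays lay lower there, the opposite of the non-targeting tumours of the same experiment. In the second VDH15 experiment 9.21, 10.49 and 10.15 stood against 9.64, 8.70 and 9.38, which overlap. Its estimate was -1.27 ± 0.58 log2. That of Thbs3 was -0.55 ± 0.16 (unadjusted p = 0.0111), of Cthrc1 -0.63 ± 0.27, of Sparc -0.06 ± 0.12 and of Tgfbi 0.15 ± 0.17 log2.

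As ranges, 3 of 7 members were lower on palmitate without overlap in SCC25 shCD36 tumours (Thbs3, Thbs4 and Cthrc1), where 8.13% of all genes were, and Tgfbi was higher. In the second VDH15 experiment 3 of 7 were lower (Thbs2, Postn and Sparc), against 12.3% of all genes. The genes in both counts differ.

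Whether palmitate acted differently under the 2 hairpins was tested as the difference of the palmitate effects. No gene of the 12823 passed this test (0.0%), although 2011 genes and 6 of the 7 members had an unadjusted p under 0.05. The members' estimates, shCD36 minus non-targeting, were -2.31 ± 0.30 log2 for Postn (adjusted p = 0.0659), -2.14 ± 0.36 for Thbs2 (adjusted p = 0.0964) and -1.93 ± 0.34 for Cthrc1 (adjusted p = 0.0989). For Thbs4 the estimate was -3.08 ± 0.75, for Thbs3 -0.84 ± 0.20 and for Sparc -0.69 ± 0.16 log2. TGFBI stood apart from these at 0.11 ± 0.22 log2, with a 95% interval of -0.41 to 0.62. A fit without the experiment term called 6 members here and 699 of all genes. One over single arrays, which are technical replicates, that models their correlation within a group called 6 members and 1052 genes. With the array number as an added term it also called 6, with 1044 genes. Every other alternative called 0 members, also those leaving out 1 experiment, the 3 arrays that stood apart or the filter on low values.

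**Figure D2:**
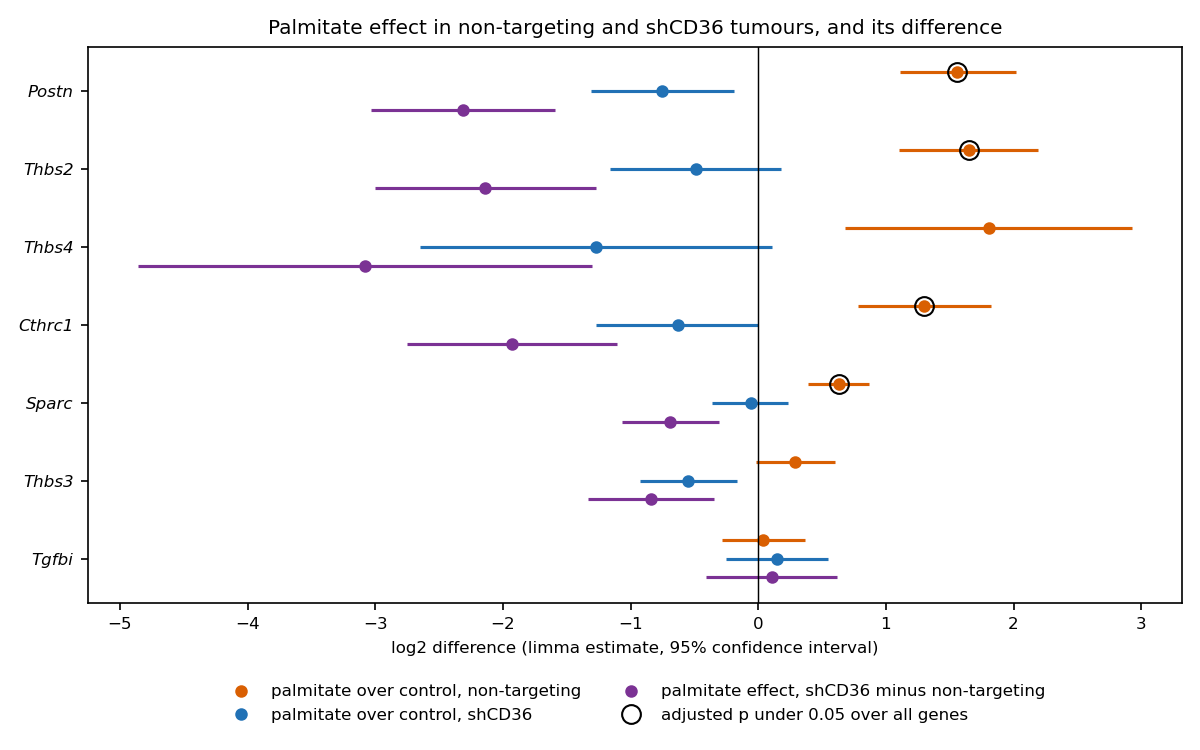
Log2 differences with 95% confidence intervals (horizontal axis) for the 7 tested genes: palmitate over control in non-targeting tumours (orange), the same in shCD36 tumours (blue) and the second minus the first (purple), with rings where the adjusted p is under 0.05. Rings mark Postn, Thbs2, Cthrc1 and Sparc in non-targeting tumours and no gene elsewhere.

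On palmitate diet, shCD36 tumours had less periostin transcript in their stroma than non-targeting tumours. Postn fell by 1.83 ± 0.22 log2 (SE, n = 2 experiments, adjusted p = 0.0418), a 3.55-fold difference, and was the only member called. Its differences within SCC25 and the second VDH15 experiment were -2.01 and -1.89 log2. For comparisons with shCD36 the fit also draws on the non-targeting tumours of the first VDH15 experiment, which has no shCD36 tumours. Of all genes, 0.14% were called lower. The array values given above show no overlap in either experiment, with group means of 9.34 against 11.35 log2 in SCC25 and 9.22 against 11.11 in the second VDH15 experiment. Without the 3 arrays that stood apart the estimate was -1.65 log2 (adjusted p = 0.0883), and leaving out SCC25, the second VDH15 experiment or the filter on low values, or fitting only the groups compared, also ended the call. In this comparison 7 of 7 endothelial markers were lower (median -1.19 log2), as were 4 of 4 pericyte and smooth muscle markers (-1.06) and 5 of 7 fibroblast markers (-1.17), while 5 of 6 keratinocyte markers were higher (0.60). None of these markers was called, and their part in the Postn difference was not tested.

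Estimates of the other members were -1.48 ± 0.27 log2 for Thbs2 (adjusted p = 0.0812), -1.92 ± 0.55 for Thbs4 (adjusted p = 0.155) and -1.03 ± 0.25 for Cthrc1 (adjusted p = 0.12). Sparc gave -0.45 ± 0.12 (adjusted p = 0.128), Thbs3 -0.36 ± 0.15 and Tgfbi 0.19 ± 0.16 log2. In SCC25, 6 of 7 members were lower in shCD36 tumours without overlap, all but Tgfbi, where 12.5% of all genes were. In the second VDH15 experiment 3 of 7 were (Thbs2, Postn and Sparc), against 19.0% of all genes, and Tgfbi was higher.

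On control diet the estimates ran the other way, with all 7 members above 0 and none called (0 of 7, against 0.0% of all genes). By the same limma fit, 3 members and 435 of all genes had an unadjusted p under 0.05. The median was 0.48 log2, against -0.01 over all genes. Cthrc1 stood at 0.90 ± 0.25 log2 (SE, n = 2, unadjusted p = 0.01, adjusted p = 0.991), with shCD36 arrays at 7.57, 8.13 and 8.35 log2 in SCC25 and 7.86, 8.15 and 8.26 in the second VDH15 experiment, all above the non-targeting control arrays of their experiment. Thbs2 had 0.66 ± 0.27 and Thbs4 1.16 ± 0.55 log2. In SCC25 5 of 7 members were higher without overlap (Thbs2, Thbs3, Thbs4, Sparc and Cthrc1), against 13.1% of all genes, while Tgfbi was lower. In the second VDH15 experiment 6 of 7 were, all but Thbs4, against 10.2% of all genes.

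The order of the group means followed from these differences. Thbs2, Thbs4, Postn and Sparc had their highest mean in non-targeting tumours on palmitate diet in each of the 3 experiments. For Thbs2, Postn and Sparc that group lay clear of the next in SCC25 and the second VDH15 experiment. Cthrc1 followed suit except in the second VDH15 experiment, where shCD36 control (8.09 log2) and non-targeting palmitate (8.03) overlapped. Thbs3 was highest in shCD36 control tumours of SCC25 and the second VDH15 experiment, both at 6.93 log2, overlapping with the next group.

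**Figure D3:**
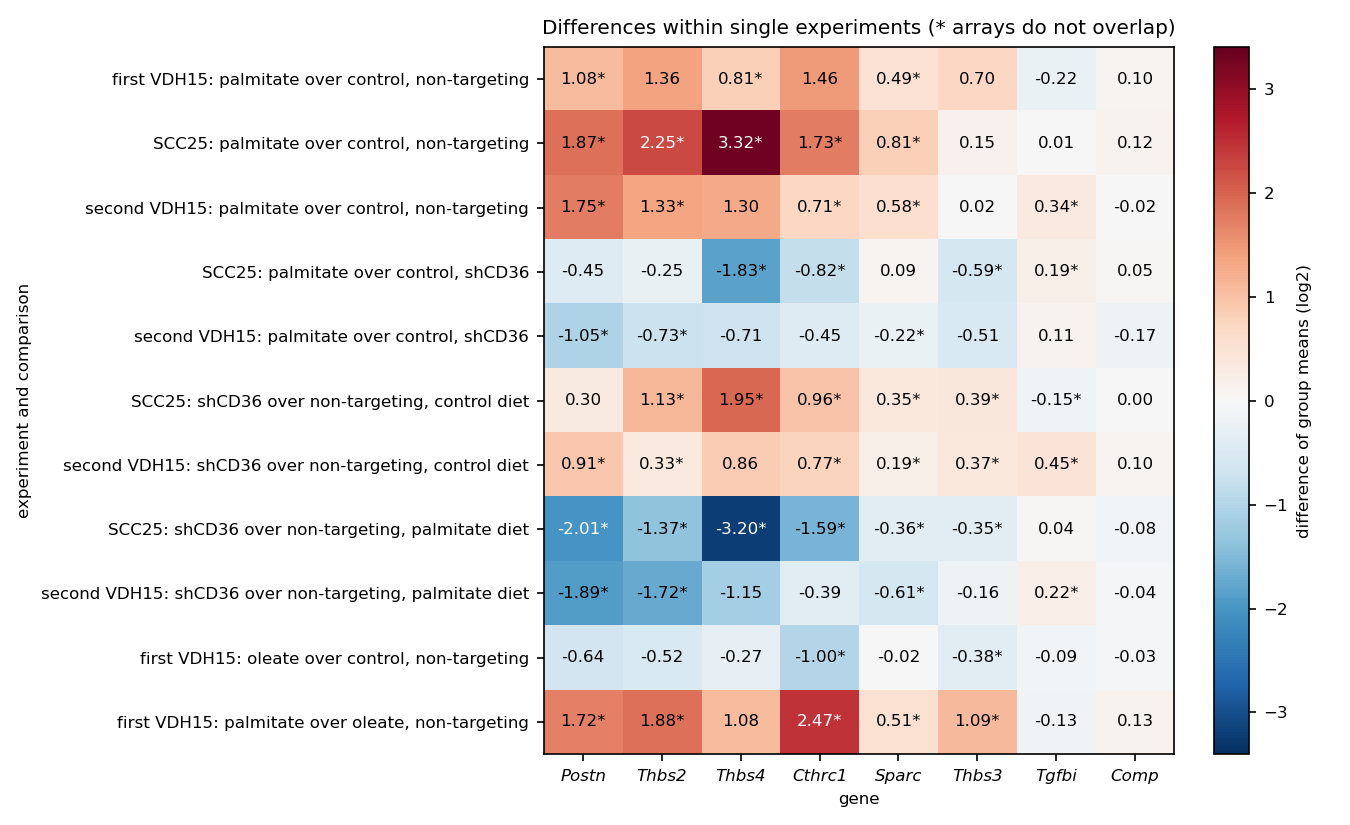
Difference of group means (log2, colour and number) for the 8 genes (columns) in the 11 comparisons within 1 experiment (rows), with a star where the arrays of both groups do not overlap. Non-targeting palmitate rows are positive and shCD36 palmitate rows negative for Postn, Thbs2, Thbs4, Cthrc1 and Thbs3, with SCC25 Thbs4 at 3.32 and -1.83.

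Oleate diet was given in the first VDH15 experiment only, so its error rests on the spread of the other groups. None of the members was called (0 of 7, against 0.0% of all genes). By this limma fit, 2 members and 225 of all genes had an unadjusted p under 0.05. Cthrc1 arrays on oleate read 5.83, 5.64, 6.42 and 6.36 log2, all under the control arrays, and the fitted estimate was -1.09 ± 0.34 (unadjusted p = 0.0168). Thbs3 arrays read 5.97, 5.57, 5.97 and 5.93, again all lower, with an estimate of -0.59 ± 0.20. These were 2 of 7 members lower without overlap, against 9.06% of all genes. For Postn the oleate arrays read 8.93, 9.03, 9.09 and 9.55 and for Thbs2 7.93, 7.81, 8.08 and 8.01 log2, both overlapping the control arrays, with estimates of -0.39 ± 0.30 and -0.38 ± 0.36. Sparc on oleate read 12.19, 12.25, 12.22 and 12.23 log2, within the range of its control arrays. Thbs4 read 9.96, 7.51, 9.37 and 9.88, and its fitted 0.23 ± 0.75 and the plain difference of means, -0.27, had opposite signs.

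Palmitate against oleate gave a median of 1.58 log2 for the members and -0.03 for all genes, with no member called (0 of 7, against 0.039% of all genes). The estimates were 2.39 ± 0.34 log2 for Cthrc1 (adjusted p = 0.115), 2.03 ± 0.36 for Thbs2 (adjusted p = 0.146) and 1.96 ± 0.30 for Postn (adjusted p = 0.121). As ranges, 5 of 7 members were higher without overlap (Thbs2, Thbs3, Postn, Sparc and Cthrc1), against 15.9% of all genes. Without the arrays that stood apart, the plain difference of Cthrc1 went from 2.47 to 1.37 log2 and that of Thbs2 from 1.88 to 0.99. These comparisons share the palmitate and control arrays with those above.

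Among themselves, 6 of the members varied together over the 11 group means, with Pearson r between 0.44 and 0.97 in their 15 pairs. Tgfbi had r between -0.19 and 0.0 with each of them. These are descriptions over groups that share their experiments. Unlike the other comparisons they run across experiments, with means not centred by experiment. The like genes named next are the closest picked from all tested genes. Over the same 11 means, the genes most like Thbs2 were Fkbp7 (r = 0.983), S100a4 (0.98) and Tmem100 (0.98), and those most like Sparc were S100a4 (0.975), Tspan4 (0.97) and Fkbp7 (0.968). Most like Postn were Gxylt2 (0.981), the collagen cross-linking enzyme Lox (0.968) and the collagen chain Col6a2 (0.963). Cthrc1 was closest to C1qtnf7 (0.99), the procollagen C-proteinase enhancer Pcolce (0.985) and the noncoding RNA Rian (0.979).

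Other genes of the pathway were read from lists, and are named by their smallest p for palmitate in non-targeting tumours. The lists were written with earlier results of these data known, so their counts are descriptions and not independent support. The counts below for palmitate in non-targeting tumours stand against 3.65% of all genes called higher and 3.27% called lower. Of 23 other matricellular genes, 16 were tested, 6 rose and 0 fell, with a median of 0.67 log2. Among them were Ccn2, a connective tissue growth factor (1.22 ± 0.13 log2, adjusted p = 0.0141), its relatives Ccn5 (1.57 ± 0.27, adjusted p = 0.0289) and Ccn3 (0.57 ± 0.12, adjusted p = 0.0385), and the elastic fibre protein Fbln5 (0.97 ± 0.18, adjusted p = 0.034). On palmitate diet Ccn2 fell by 1.28 ± 0.15 log2 in shCD36 against non-targeting tumours (adjusted p = 0.0382), the 1 call of this list there. In that comparison 0.14% of all genes were called lower.

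Of 25 receptor genes, 20 were tested, 3 rose and 1 fell, with a median of 0.12 log2. The fibronectin receptor chain Itga5 rose by 1.07 ± 0.08 log2 (adjusted p = 0.00628) and the SPARC-clearing scavenger receptor Stab1 by 1.16 ± 0.22 (adjusted p = 0.0358). Cacna2d1, the thrombospondin receptor of synapse formation, rose by 0.84 ± 0.19 (adjusted p = 0.0491). Oleate against control diet gave estimates of 0.78 log2 for Itga5, 0.47 for Stab1 and -0.23 for Cacna2d1, from the 1 oleate group. Palmitate against oleate gave 0.29 log2 for Itga5. Vangl2, of the planar polarity pathway, fell by 0.47 ± 0.07 log2 (adjusted p = 0.0213). Of 17 genes of the TGF-beta axis, 15 were tested, and the 3 that rose were the ligands Tgfb3 (1.44 ± 0.31 log2, adjusted p = 0.0432), Tgfb1 (0.85 ± 0.17, adjusted p = 0.0384) and Tgfb2 (0.60 ± 0.13, adjusted p = 0.0432), with 0 lower. The inhibitor Smad7 had -0.59 ± 0.14 log2 (adjusted p = 0.0544).

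Of 20 matrix partners and modifiers, 19 were tested, 10 rose and 0 fell, with a median of 1.24 log2. Lox rose by 2.15 ± 0.30 log2 (adjusted p = 0.0199), the fibril collagen Col5a1 by 1.84 ± 0.20 (adjusted p = 0.0149), the metalloprotease inhibitor Timp1 by 1.73 ± 0.21 (adjusted p = 0.0174) and Col6a2 by 1.24 ± 0.12 (adjusted p = 0.0104). On palmitate diet Col6a2 fell by 1.20 ± 0.14 log2 in shCD36 against non-targeting tumours (adjusted p = 0.0398), the 1 call of this list there. In that comparison 0.14% of all genes were called lower.

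Markers of other cell types moved with the same comparison. In bulk RNA, more cells of a type and more RNA per cell cannot be told apart. Of 7 fibroblast markers tested, 3 rose on palmitate in non-targeting tumours (Fap, Lum and Mfap5, by 1.44, 1.94 and 1.83 log2), and Pdgfra lay under the filter. The others, Dpt, Dcn, Pi16 and Clec3b, differed by 1.65, 0.35, -0.04 and -0.05 log2 and were not called. The mean level of all 8 went from 7.49 to 8.34 log2 in the first VDH15 experiment, from 7.34 to 8.66 in SCC25 and from 7.54 to 8.14 in the second VDH15 experiment. These arrays did not overlap in any of the experiments. In shCD36 tumours it went from 8.02 to 7.35 in SCC25 and from 7.83 to 7.86 in the second VDH15 experiment, and on oleate it was 7.04. In these second VDH15 shCD36 groups the level of pericyte and smooth muscle markers went from 9.40 to 8.58 log2 and that of endothelial markers from 8.86 to 8.42.

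Of 7 endothelial markers tested, 2 rose (Tek by 1.57 and Vwf by 1.26 log2), and their mean level went from 7.94 to 10.18 log2 in SCC25, from 8.56 to 10.02 in the first and from 9.09 to 9.95 in the second VDH15 experiment. On oleate diet the endothelial level was 9.39 log2 against 8.56 on control diet, and in SCC25 shCD36 tumours it went from 8.93 to 9.27 on palmitate. Of 6 macrophage markers, 1 rose (Mrc1, by 1.85 log2), with Adgre1 under the filter. Of 6 keratinocyte markers, 3 fell (Krt10 by 1.76, Krt13 by 1.23 and Krt4 by 1.95 log2). The others, Krt5, Krt14 and Trp63, differed by 0.04, -0.05 and -0.45 log2 and were not called. The list's level went from 10.17 to 9.34 log2 in SCC25, from 10.29 to 9.14 in the first and from 9.95 to 9.42 in the second VDH15 experiment. All 4 pericyte and smooth muscle markers tested were higher (median 0.89 log2) with 0 called, and their level went from 8.93 to 9.47 log2 in the first VDH15 experiment, from 8.30 to 10.35 in SCC25 and from 9.03 to 9.15 in the second. Schwann cell (3 tested), neuron (4), tendon and cartilage (4), osteoblast (2) and skeletal muscle (4) markers had no call, and 1 of 4 platelet markers, Pf4, rose by 0.44 log2. Thbs4 and Comp are typical of tendon and cartilage. Of that list, Scx (5.77 log2), Acan (5.89), Col2a1 (6.61) and Chad (5.45) lay above the filter, and Tnmd and Mkx lay under it. The part of these cell types in the differences above was not tested.

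**Figure D4:**
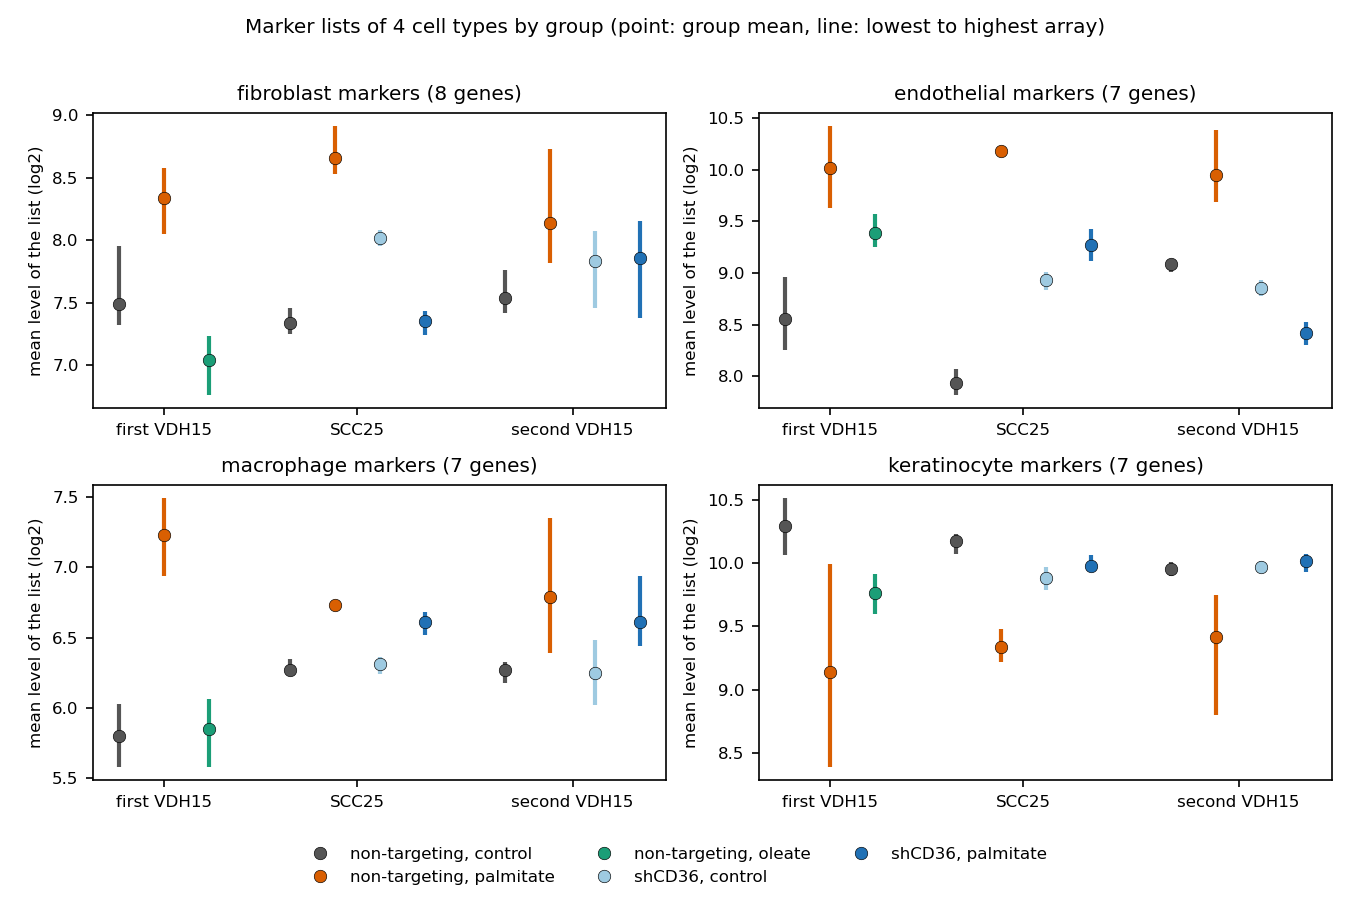
Mean level of 4 marker lists (log2, vertical axis) in the 11 groups, with points at group means and lines from the lowest to the highest array. Fibroblast and endothelial lists are highest in non-targeting palmitate groups of each experiment (8.14 to 8.66 and 9.95 to 10.18 log2), where the keratinocyte list is lowest.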

How the data were processed

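RNA of the neural fraction of tumour stroma was read on 36 mouse Affymetrix arrays. The deposited values are log2 intensities, made by the authors with RMA in affy per the submitters' processing notes; no genome build is given in the sources used here. Batch coefficients (hybridisation and scan) were under 1e-06 in 100% of the 45141 probe sets with diet and shRNA in the model, against 0.00222% without, so the values already carry a batch adjustment. The number of arrays and of experiments limits the precision.

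The annotation gave 1 gene for 28898 probe sets, several for 551 and none for 15692. The probe set with the highest mean stood for each of 17097 genes, and the lowest 25% (under 5.19 log2) were left out, which left 12823. The 36 arrays were reduced to 11 group means, on which a linear model with terms for condition and for experiment was run in limma 3.58.1 (R 4.3.3; 4 residual and 2.7 prior degrees of freedom), for 7 contrasts with Benjamini-Hochberg adjustment. The arrays are labelled technical replicates, so no p-value is taken over them within an experiment. The fit was tested on simulated data. Tables and promoter searches used pandas 2.3.3.

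The members and gene lists were chosen with earlier results of these data known. Named genes were all members, up to 4 genes of each pathway list with the smallest p for palmitate in non-targeting tumours, and the 3 genes most correlated with each called member. Alternatives covered the block, probe set choice, filter, normalization, variance model and left-out experiments or arrays. The main fit does not pair arrays of different groups by their number. Of 48 pairs of arrays with the same number within experiments, 8 had correlated deviations over 0.1 (range -0.3 to 0.34). This does not settle whether arrays were paired, as SCC25 labels do not count arrays within a group and numbers came from titles or sample order.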

Additional observations from a re-analysis of the deposited data

Results flagged for a closer look

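For 5 genes, the palmitate difference had opposite signs in non-targeting and shCD36 tumours, in every experiment that has them. For Thbs3 this rests on 0.02 log2 in second VDH15 non-targeting tumours, with overlapping arrays. Without the array that stood apart it was -0.19 log2, the sign of the shCD36 tumours. How many of all genes have such opposite signs was not counted. The test of the difference itself, shCD36 minus non-targeting, gave -2.14 log2 for Thbs2, -0.84 for Thbs3, -3.08 for Thbs4, -2.31 for Postn and -1.93 for Cthrc1, and none of these passed the threshold after adjustment (adjusted p from 0.0659 to 0.158).

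One array of the first VDH15 oleate group, at 5.57 log2 for Thbs3, lay apart from the other 3 arrays of its group, which read 5.93 to 5.97. Its gap to the nearest array, as a share of the group's whole range, passed Dixon's 95% critical value, and no other of the 24 gene and group sets of 4 arrays checked did. The Thbs4 array at 7.51 log2 in the same group has a wider gap but a smaller share of a wider range. Chance alone marks about 1 in 20 of such sets.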

How the results depend on the processing

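The limits lie in the number of replicates, with 3 experiments for the non-targeting comparison, 2 for shCD36 and 1 for oleate. For palmitate in non-targeting tumours the fit called 4 members (887 of all genes), 2 without the 3 arrays that stood apart (599) and 0 with only the groups of the contrast (34). Leaving out 1 experiment gave 0 to 2 (0 to 224 genes). For shCD36 over non-targeting on palmitate diet it called 1 (48 genes), and 5 with no replicate block (1722), 2 with the mean of all probe sets (47), 0 with no expression filter (32), 0 without the 3 arrays (6), 0 with only the groups of the contrast (0), and 0 to 1 without 1 experiment (0 to 115). duplicateCorrelation over arrays called 4 there (1627), or 4 with the array number as replicate block (1576). For the difference of the palmitate effects, no replicate block and both duplicateCorrelation fits called 6 instead of 0, with 699, 1052 and 1044 genes instead of 0, and for palmitate over oleate 5 instead of 0, with 869, 581 and 566 genes instead of 5. The cause was not tested. Within the first VDH15 experiment, scan batch 3 alone (2 arrays a group) gave 6 non-overlapping members instead of 3 for palmitate over control, where 27.5% of all genes did not overlap instead of 17.2%. Each scan batch alone gave 5 instead of 2 for oleate over control, where 26.8% (batch 2) and 23.1% (batch 3) of all genes did instead of 9.06%.

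Signs turned for differences near 0. Within the second VDH15 experiment, Thbs3 for palmitate in non-targeting tumours went from 0.02 to -0.19 log2 without the array that stood apart. With 1 experiment left out at a time, Tgfbi ranged from -0.11 (without replicate 3, the second VDH15 experiment) to 0.17 log2 for palmitate in non-targeting tumours, from -0.21 to 0.31 for shCD36 on control diet, from -0.02 to 0.3 for the difference of effects, from -0.04 to 0.05 for oleate over control and from -0.07 to 0.01 for palmitate over oleate. Sparc ranged from -0.22 to 0.09 for palmitate in shCD36 tumours, and Thbs4 from -0.15 (without SCC25) to 0.35 for oleate. With quantile normalization, Tgfbi was -0.03 for palmitate in non-targeting tumours and -0.04 for palmitate over oleate, and Sparc -0.0034 for oleate. Without the 3 arrays, Tgfbi was -0.03 for the difference of effects and -0.08 for oleate. For palmitate over oleate it was -0.00063 with duplicateCorrelation and -0.00062 with the array number as replicate block. The causes were not tested. Of 560 member estimates in all fits, 478 kept direction and call, 47 gained a call and 21 lost one. The oleate contrasts could not be fitted without the first VDH15 experiment or with only their own groups.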
